A study of Homo sapiens with 15 samples.

Results

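A set of 7 genes that androgen induces in luminal cells of the prostate, TMPRSS2, SLC45A3, NDRG1, PMEPA1, ABCC4, TRPM8 and ACPP, was examined in LNCaP cells treated with the androgen R1881 with or without darolutamide. The genes were chosen by name, with earlier results of these data known. All 7 were found among the 17272 genes of the expression table. With darolutamide 6 of the 7 were lower and none was higher, while ACPP did not pass the test. Over all genes tested, 23.7% were lower and 22.8% were higher by the same rule.

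LNCaP is a human prostate cancer line that grows in response to androgen. R1881 is a synthetic androgen, and darolutamide is an inhibitor of the androgen receptor. Before treatment all cells spent 2 days in serum stripped of steroids with charcoal, and they were harvested after 22 h of treatment. The treated cultures received 1 nM R1881 and 2 µM darolutamide (5 libraries, numbered 86 to 90 in the labels). The control cultures received 1 nM R1881 and the solvent DMSO (10 libraries, numbered 51 to 55 and 71 to 75). Combination replicates 1 to 5, as the treated libraries are called here, are libraries 87, 86, 90, 89 and 88, in that order. Libraries without R1881 were not analysed here, so the size of the induction by androgen itself was not measured. RNA was sequenced from whole cultures, in which fewer cells that express a gene and less RNA of it per cell cannot be told apart.

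The androgen receptor is a hormone-activated transcription factor that binds DNA as a dimer, at paired half-sites known as androgen response elements, mostly in enhancers away from the genes it controls. In the prostate it maintains the secretory programme of luminal cells. The 7 genes stand for different parts of that programme. TMPRSS2 encodes a serine protease of the cell surface, and its androgen-driven promoter is joined to ETS family genes in many prostate cancers. SLC45A3 encodes prostein, a prostate-enriched membrane transporter. ABCC4 encodes an efflux pump that exports cyclic nucleotides and prostaglandins, and TRPM8 a cation channel opened by cold and menthol. NDRG1 is a cytoplasmic protein of differentiation and stress, also induced by hypoxia. PMEPA1 is a membrane adaptor of ubiquitin ligases that dampens TGF-beta signalling, and ACPP, now named ACP3, is prostatic acid phosphatase, a secreted enzyme of seminal fluid.

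RefSeq promoter windows (GRCh38.p14) were matched for 5 of the 7 genes, all but TMPRSS2 and NDRG1. Each window holds 250 bases before the transcription start and 50 bases from it on, and the start nearest to that of the canonical GENCODE transcript was taken. The windows are shown because those of ABCC4, PMEPA1 and SLC45A3, whose expression was clearly lower with darolutamide, and those of TRPM8 and ACPP, whose expression differed little, are unlike in composition. Capitals mark CG dinucleotides and the TATAAA motif, and each sequence runs 5′ to 3′ on the strand of its gene.
ABCC4: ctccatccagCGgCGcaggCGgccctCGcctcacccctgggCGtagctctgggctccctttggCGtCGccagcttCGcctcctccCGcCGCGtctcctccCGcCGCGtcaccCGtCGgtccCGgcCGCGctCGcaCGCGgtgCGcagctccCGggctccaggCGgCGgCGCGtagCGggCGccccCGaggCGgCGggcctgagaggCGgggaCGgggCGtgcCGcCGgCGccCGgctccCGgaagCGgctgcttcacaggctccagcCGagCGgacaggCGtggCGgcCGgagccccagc
PMEPA1: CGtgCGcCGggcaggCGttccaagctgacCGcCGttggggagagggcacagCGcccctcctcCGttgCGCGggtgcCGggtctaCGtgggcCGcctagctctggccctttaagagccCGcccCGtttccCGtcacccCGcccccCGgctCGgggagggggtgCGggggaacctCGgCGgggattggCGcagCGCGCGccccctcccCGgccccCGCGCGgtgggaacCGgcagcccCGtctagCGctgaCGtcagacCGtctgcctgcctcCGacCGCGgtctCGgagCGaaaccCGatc
SLC45A3: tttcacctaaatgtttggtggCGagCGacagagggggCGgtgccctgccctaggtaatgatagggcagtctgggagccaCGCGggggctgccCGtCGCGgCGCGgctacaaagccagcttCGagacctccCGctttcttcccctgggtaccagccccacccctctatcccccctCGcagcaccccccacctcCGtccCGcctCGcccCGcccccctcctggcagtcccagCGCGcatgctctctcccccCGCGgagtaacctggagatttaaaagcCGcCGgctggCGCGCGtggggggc
TRPM8: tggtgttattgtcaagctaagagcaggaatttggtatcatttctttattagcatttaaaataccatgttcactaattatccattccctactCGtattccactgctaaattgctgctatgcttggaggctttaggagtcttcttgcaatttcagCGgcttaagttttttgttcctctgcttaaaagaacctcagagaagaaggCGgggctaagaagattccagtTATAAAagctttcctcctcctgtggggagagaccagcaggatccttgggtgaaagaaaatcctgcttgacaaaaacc
ACPP: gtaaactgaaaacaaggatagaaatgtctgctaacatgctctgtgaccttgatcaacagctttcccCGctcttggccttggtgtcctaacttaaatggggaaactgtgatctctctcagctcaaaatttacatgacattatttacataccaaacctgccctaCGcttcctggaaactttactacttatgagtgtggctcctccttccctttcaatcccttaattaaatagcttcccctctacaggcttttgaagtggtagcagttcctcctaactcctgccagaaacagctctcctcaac

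The ABCC4 window lies at chr13:95301402-95301701 on the minus strand and has a GC content of 79.7% with 47 CG dinucleotides. That of PMEPA1, at chr20:57709966-57710265 on the minus strand, has 75.3% and 41, and that of SLC45A3, at chr1:205680460-205680759 on the minus strand, has 69% and 26. The TRPM8 window, at chr2:233917123-233917422 on the plus strand, has a GC content of 41% with 3 CG dinucleotides and a TATAAA motif that starts 27 bases before the transcription start. The ACPP window, at chr3:132317157-132317456 on the plus strand, has 43.7% and 2. Across 35116 RefSeq promoter windows the median was 58.67% GC and 14 CG dinucleotides, with 10th and 90th percentiles of 39% and 74.67% GC. TATAAA or its complement TTTATA occurred in 11.5% of all windows. The half-site AGAACA or TGTTCT of the androgen response element, found in 14.8% of all windows, and the forkhead motif TGTTTAC or GTAAACA, found in 3.42%, were not among the letters of the 5 windows. The comparison rests on 5 genes and is a description only.

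The full androgen response element, AGAACA and TGTTCT with 3 free bases between them, which reads the same on both strands, was also searched within 50 kb on either side of the start of the same 5 genes in the hg38 genome, with at most 1 mismatch in the 12 specified bases. TRPM8 held 2 such sequences and ACPP held 1, all within the genes, while SLC45A3, PMEPA1 and ABCC4 held 0. TRPM8 and ACPP moved least of these 5 genes. TMPRSS2 and NDRG1, the most reduced genes of the set, were not scanned. A link between these sequences and the size of the change was therefore not tested. The sequences are shown with 10 flanking bases on each side, with the element in capitals.
TRPM8, 5.97 kb after the start: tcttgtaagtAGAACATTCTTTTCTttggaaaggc
TRPM8, 18.29 kb after the start: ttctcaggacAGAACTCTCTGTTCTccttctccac
ACPP, 41.09 kb after the start: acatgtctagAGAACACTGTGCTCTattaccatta

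The elements lie at chr2:233923337-233923351, chr2:233935660-233935674 and chr3:132358492-132358506. Of 14751 transcript starts scanned in the same way, 35% had at least 1 such sequence and 6.96% at least 2. A match in letters does not show that the receptor binds there.

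Reads counted in the 17272 genes, recovered from the scaled values, numbered 21870398 to 25317567 per library with R1881 and darolutamide. With R1881 they numbered 15830745 to 24316740, and the 7 genes were covered by 1488 to 25484 reads per library. Expression is given in CPM, the unit in which the authors scaled reads to library size. A log2 fold change is the difference of log2(CPM + 0.5) between the groups, with darolutamide minus without, and its test is limma's trend test over all genes with Benjamini-Hochberg adjustment and a threshold of 0.05. In 2184 genes, 12.6% of the table, every library with darolutamide lay below every R1881 library, and in 10.8% every one lay above. Libraries of the same treatment differed by a GC trend, in which combination replicate 4 (library 89) and combination replicate 3 (library 90) stood at opposite ends. The libraries with darolutamide form a run of numbers of their own, so that an effect of darolutamide and one of the run cannot be told apart. With darolutamide the 20 most abundant genes took 7.33% to 8.12% of reads, against 6.47% to 6.80% with R1881, and mitochondrially encoded genes took 3.12% to 3.94%, against 2.65% to 3.02% with R1881. The part of these differences in the results below was not tested.

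TMPRSS2 expression with darolutamide was 32.5% of that with R1881 alone. The gene lies on chromosome 21 of GRCh38 from 41464300 to 41531116 on the minus strand and has 14 exons in its canonical transcript. Its expression was 273, 274, 260, 298 and 277 CPM in combination replicates 1 to 5. In the R1881 libraries it was 790 CPM at the lowest, 854 CPM at the median and 918 CPM at the highest. Every library with darolutamide thus lay far below every R1881 library. The means were 276 ± 13.8 CPM (SD, n = 5) with darolutamide and 850 ± 51.2 CPM (SD, n = 10) with R1881, and the log2 fold change was -1.62 (standard error 0.044, adjusted p = 2.7e-15 from limma). MX1, an interferon-induced GTPase on the opposite strand, shares 143 exon bases with TMPRSS2 and had 3.83 ± 0.32 CPM with darolutamide and 2.18 ± 0.27 CPM with R1881. The strand setting of the counting is not given in the sources used here, so reads of the shared bases cannot be assigned.

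SLC45A3 was more variable among the libraries with darolutamide than the other 6 genes. It lies on chromosome 1 from 205657851 to 205680509 on the minus strand, with 5 exons. Combination replicates 1 to 5 had 142, 142, 124, 209 and 142 CPM, against a lowest value of 322 CPM, a median of 344 CPM and a highest value of 418 CPM in the R1881 libraries. Combination replicate 4 stood above the rest of its group and still lay below all R1881 libraries. The log2 fold change was -1.23 (standard error 0.090, adjusted p = 3.1e-09 from limma), between means of 152 ± 32.8 CPM (SD, n = 5) with darolutamide and 352 ± 29.1 CPM (SD, n = 10) with R1881. Without combination replicate 4 it was -1.35.

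ABCC4 had the highest CPM of the 7 genes in both groups. It lies on chromosome 13 from 95019835 to 95301475 on the minus strand and has 31 exons. The values were 454, 454, 462, 394 and 450 CPM in combination replicates 1 to 5, against 979 CPM at the lowest, 1101 CPM at the median and 1144 CPM at the highest in the R1881 libraries. Here combination replicate 4 was the lowest library of its group, the opposite of its place for SLC45A3. Expression averaged 443 ± 27.6 CPM (SD, n = 5) with darolutamide and 1086 ± 53.1 CPM (SD, n = 10) with R1881, with a log2 fold change of -1.29 (adjusted p = 3.7e-14 and standard error 0.042 in limma).

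TRPM8 was lower with darolutamide by a small amount, with 82.2% of its R1881 level left. It lies on chromosome 2 from 233917373 to 234019522 on the plus strand and has 26 exons, 119 bases of which are shared with a noncoding RNA on the opposite strand. The values were 82.8, 80.9, 82.2, 74.9 and 78.3 CPM in combination replicates 1 to 5. The R1881 libraries had 89.6 CPM at the lowest, 98.1 CPM at the median and 103 CPM at the highest. The groups did not overlap, although the gap between them was only a few CPM. The log2 fold change was -0.28 (standard error 0.036, adjusted p = 4.8e-06 from limma), between 79.8 ± 3.23 CPM (SD, n = 5) with darolutamide and 97.1 ± 3.96 CPM (SD, n = 10) with R1881.

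NDRG1 was the most reduced of the 7 genes, to 14.5% of its R1881 level. Only 14 of the 17272 genes had a lower log2 fold change. It lies on chromosome 8 from 133237175 to 133302022 on the minus strand, with 16 exons, and 753 of its exon bases are shared with a long noncoding RNA annotated on the same strand. Its expression was 117, 105, 103, 121 and 108 CPM in combination replicates 1 to 5, against 711 CPM at the lowest, 762 CPM at the median and 835 CPM at the highest with R1881. The highest library with darolutamide was well below the lowest library without it. The means were 111 ± 7.82 CPM (SD, n = 5) with darolutamide and 766 ± 37.0 CPM (SD, n = 10) with R1881, a level 6.90-fold higher in the R1881 libraries and a log2 fold change of -2.78 (adjusted p = 1.9e-18 and standard error 0.043 in limma).

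PMEPA1 was at 50.8% of its R1881 level. It lies on chromosome 20 from 57648392 to 57711536 on the minus strand, with 4 exons, and the noncoding gene NKILA overlaps it on the opposite strand without shared exon bases. Combination replicates 1 to 5 had 129, 127, 117, 140 and 128 CPM. The R1881 libraries lay close together, at 245 CPM for the lowest, 253 CPM for the median and 258 CPM for the highest, a coefficient of variation of 1.89%. The log2 fold change was -0.98 (standard error 0.034, adjusted p = 8.1e-14 from limma), between means of 128 ± 8.29 CPM (SD, n = 5) with darolutamide and 253 ± 4.77 CPM (SD, n = 10) with R1881.

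ACPP differed by less than the spread between libraries. It lies on chromosome 3 from 132317369 to 132368302 on the plus strand and has 10 exons. The values were 220, 215, 230, 196 and 210 CPM in combination replicates 1 to 5, against 195 CPM at the lowest, 216 CPM at the median and 236 CPM at the highest with R1881, so that the groups overlapped. The means were 214 ± 12.5 CPM (SD, n = 5) with darolutamide and 218 ± 14.3 CPM (SD, n = 10) with R1881. The log2 fold change was -0.02, with a 95% interval from -0.12 to 0.08 (adjusted p = 0.75 from limma), and it was 0.05 when reads were scaled by library totals alone. The interval does not reach the log2 fold change of TRPM8, the smallest of the other 6 genes.

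**Figure D1:**
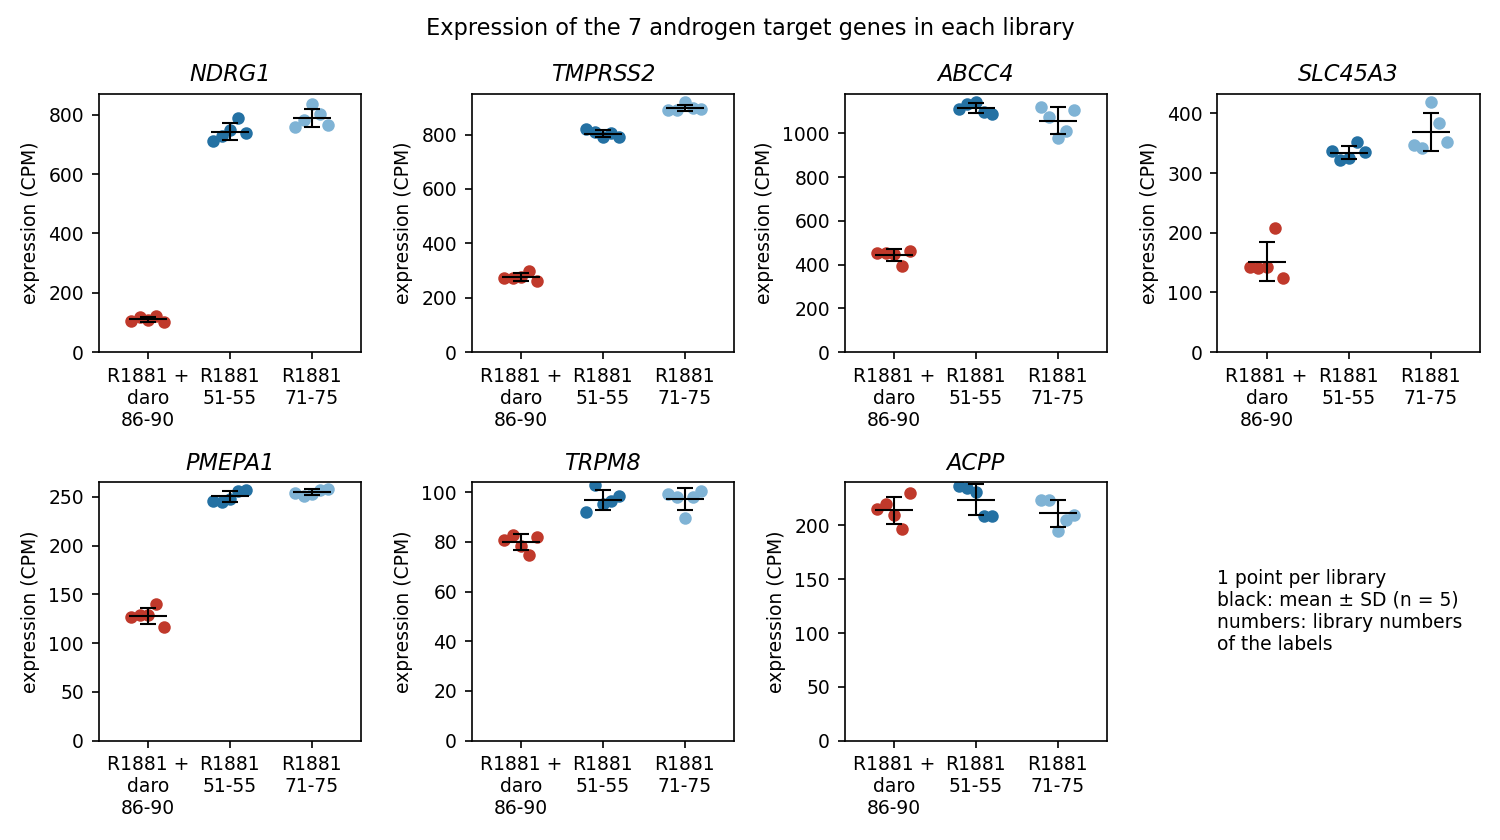
Expression in CPM (vertical axis, from 0) of the 7 genes, with each library as a point and black bars for the mean ± SD over the 5 libraries of a run, R1881 and darolutamide (86 to 90) left of R1881 (51 to 55 and 71 to 75). NDRG1 lies between 103 and 121 CPM with darolutamide and between 711 and 835 CPM with R1881, whereas the ACPP groups overlap.

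Ordered by their log2 fold changes, the genes ran from NDRG1 through TMPRSS2, ABCC4, SLC45A3 and PMEPA1 to TRPM8 and ACPP. To see which neighbours in this order differed, the log2 ratio of each pair was taken within every library. The ratio of NDRG1 to TMPRSS2 ranged from -1.38 to -1.21 with darolutamide and from -0.23 to -0.03 with R1881, without overlap. The ratios of PMEPA1 to TRPM8 and of TRPM8 to ACPP did not overlap between the groups either. For TRPM8 to ACPP the ranges were -1.48 to -1.38 with darolutamide and -1.36 to -1.05 with R1881, which lie close together. The ratios of TMPRSS2 to ABCC4, ABCC4 to SLC45A3 and SLC45A3 to PMEPA1 overlapped, but an overlap of library ranges does not decide the order. The limma intervals of the log2 fold changes of TMPRSS2 (-1.71 to -1.53) and ABCC4 (-1.38 to -1.21) lay apart. Those of ABCC4 and SLC45A3 (-1.42 to -1.04) overlapped, as did those of SLC45A3 and PMEPA1 (-1.05 to -0.91). By these intervals the step from TMPRSS2 to ABCC4 was resolved and the steps from ABCC4 to PMEPA1 were not. All 6 calls of lower expression and the absence of a call for ACPP were kept under each of the 26 alternatives to the analysis that were run.

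**Figure D2:**
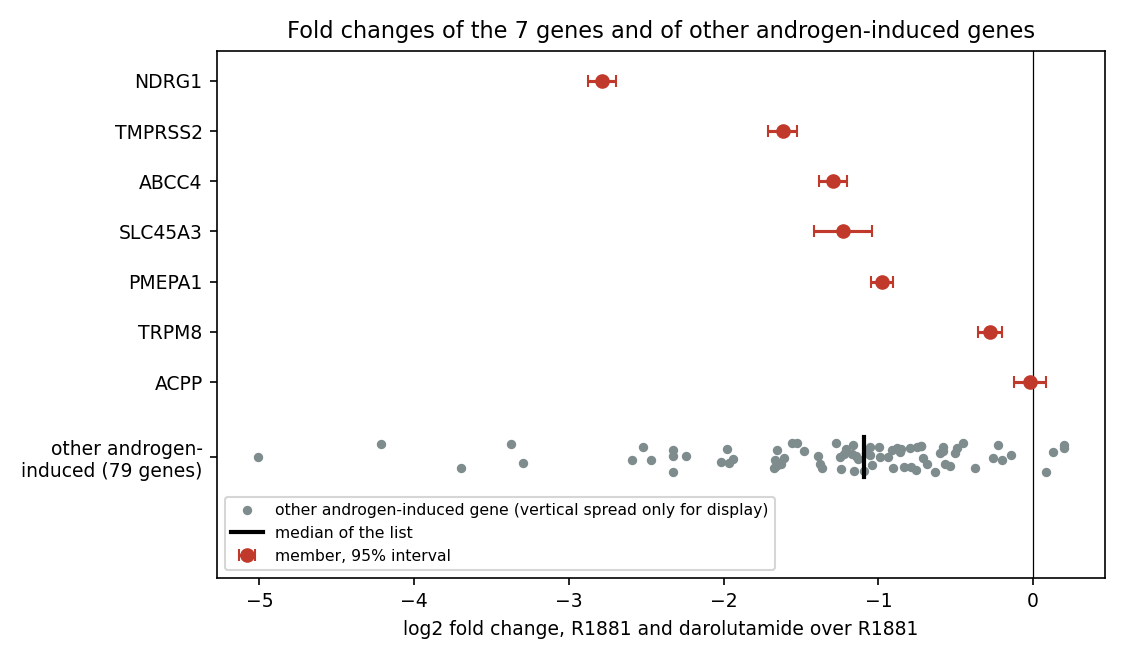
Log2 fold change (horizontal axis, R1881 and darolutamide over R1881) of the 7 genes with 95% intervals, and of 79 other androgen-induced genes with 1 point each and their median. The genes run from -2.78 for NDRG1 to -0.02 for ACPP, and the median of the other androgen-induced genes is -1.09.

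Levels of different genes can be compared only per length of transcript. On this scale NDRG1 and TMPRSS2 led in the R1881 libraries, with means of 253 and 246 CPM per kb and ranges that overlapped. ABCC4 followed at 186, SLC45A3 at 104, ACPP at 68.5, PMEPA1 at 51.0 and TRPM8 at 17.2 CPM per kb, each below the range of the gene before it. With darolutamide the order was TMPRSS2 at 80.1, ABCC4 at 75.6, ACPP at 67.5, SLC45A3 at 44.7, NDRG1 at 36.7, PMEPA1 at 25.9 and TRPM8 at 14.1 CPM per kb. NDRG1 was thus at rank 5 with darolutamide and at rank 1 with R1881, while ACPP was at rank 3 with darolutamide and at rank 5 with R1881 at nearly the same level. With darolutamide the ranges of TMPRSS2 and ABCC4, of ABCC4 and ACPP, and of SLC45A3 and NDRG1 overlapped.

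**Figure D3:**
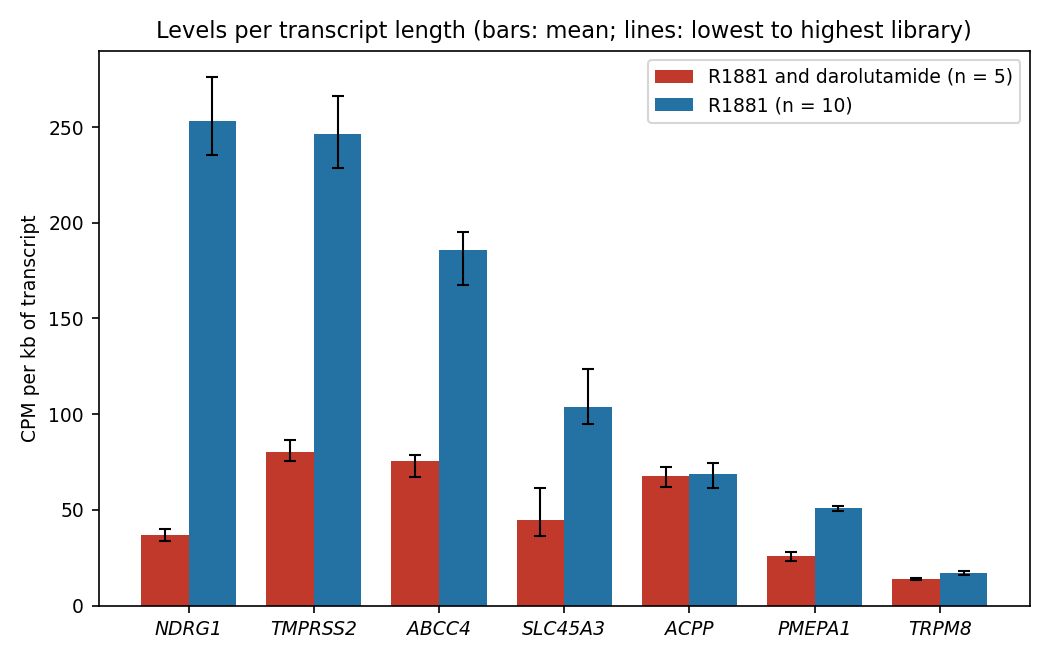
Mean level in CPM per kb of canonical transcript (vertical axis, from 0) with R1881 and darolutamide (n = 5, left bars) and with R1881 (n = 10, right bars). Lines run from the lowest to the highest library. NDRG1 stands at 36.7 CPM per kb with darolutamide and 253 with R1881, while ACPP stands at 67.5 with darolutamide and 68.5 with R1881.

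The R1881 libraries come in a pair of runs of library numbers, which gives the variation of the genes at 1 treatment. TMPRSS2 was 898 ± 11.9 CPM in libraries 71 to 75 and 803 ± 12.7 CPM in libraries 51 to 55 (SD, n = 5 each), with no overlap between the runs, a log2 difference of 0.16 (adjusted p = 0.033 from limma). Such a difference upward was called in 0.249% of all genes, and in 1.9% every library of 71 to 75 lay above every one of 51 to 55. The call was lost in 10 of 20 alternatives, each of which left out 1 library, with a limma adjusted p of up to 0.0996. Over the 20 alternatives the log2 difference itself stayed between 0.14 and 0.17. The other 6 genes did not pass, with log2 differences from -0.08 for ACPP and ABCC4 to 0.14 for SLC45A3. Against either run alone the effect of darolutamide was of similar size. It was -1.70 against libraries 71 to 75 and -1.54 against libraries 51 to 55 for TMPRSS2, and -1.30 and -1.16 for SLC45A3. For NDRG1 it was -2.83 and -2.74, and for TRPM8 it was -0.28 against both.

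Within a treatment, the genes varied in opposite directions according to the GC content of their transcripts. A GC slope was taken for each library as the change of the log2 deviation from the group mean per 10 percentage points of transcript GC, over 13777 genes. It was 0.358 in combination replicate 4 and -0.224 in combination replicate 3, and ranged from -0.131 to 0.225 in the R1881 libraries. Over the 15 libraries the deviation of SLC45A3, the most GC-rich of the 7 transcripts at 59.04%, followed this slope with a Pearson r of 0.98. For ABCC4, the most GC-poor at 42.6%, r was -0.94, and for ACPP (43.1%) it was -0.85. NDRG1, PMEPA1, TMPRSS2 and TRPM8 had r of 0.82, 0.83, 0.72 and -0.64. The deviations of SLC45A3 and ABCC4 were correlated with each other at -0.91. The 7 genes belong to the genes from which the slopes were taken and share the libraries, so these values are descriptions. After a GC correction the log2 fold changes were -1.17 for SLC45A3, -1.27 for ABCC4 and -0.26 for TRPM8, and the 6 genes kept their calls. Without combination replicates 3 and 4 they were -1.30, -1.26 and -0.27.

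**Figure D4:**
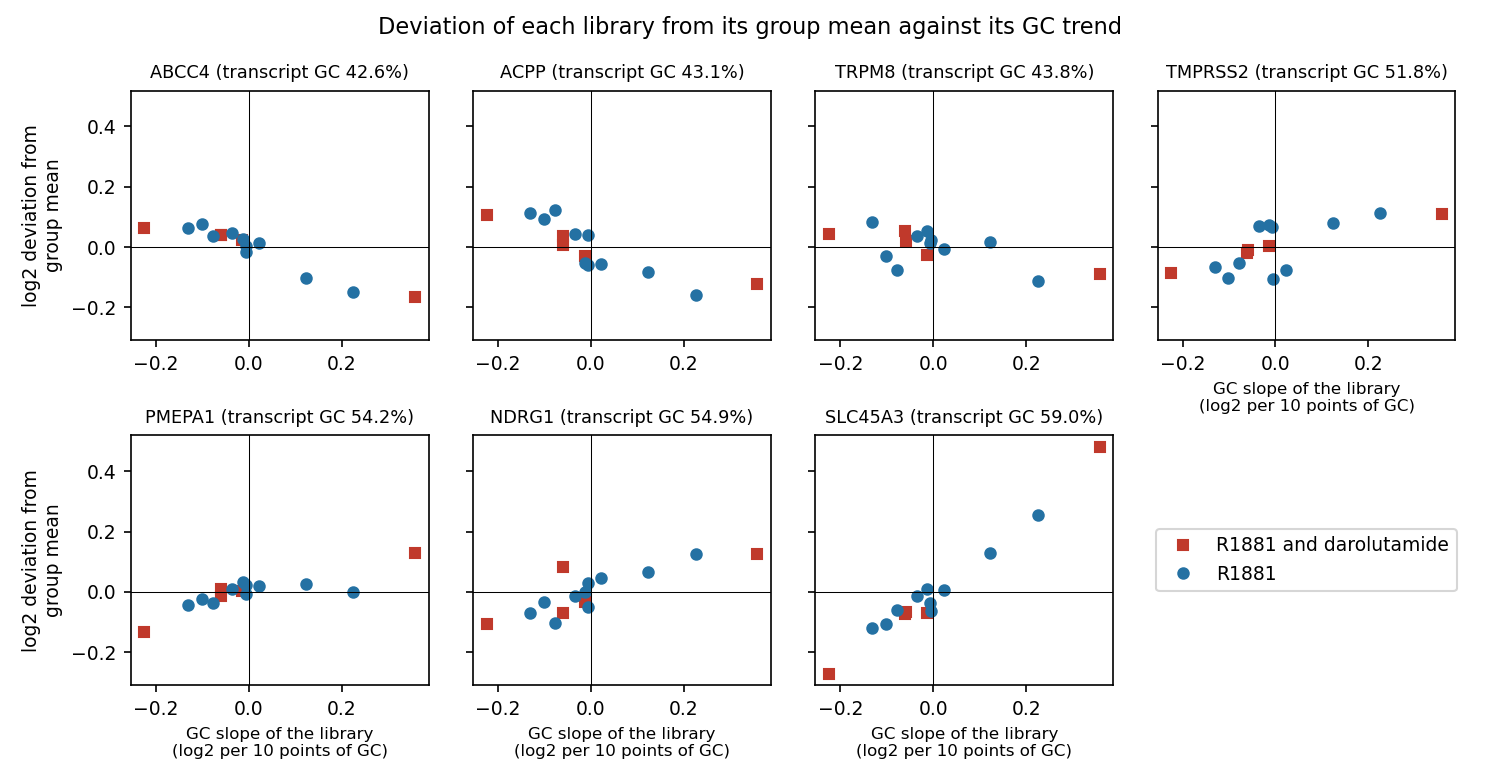
Log2 deviation of each library from its group mean (vertical axis) against the GC slope of the library (horizontal axis, log2 per 10 percentage points of transcript GC), for R1881 and darolutamide (squares) and R1881 (circles). SLC45A3 rises along the axis (r = 0.98) and ABCC4 falls (r = -0.94), and the library at 0.358 is combination replicate 4.

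Other genes known to be induced by androgen were lower in the same libraries. Of 80 such genes 79 were measured, of which 74 were lower and 0 higher while 5 missed the threshold, with a median log2 fold change of -1.09, against 0.0004 over all genes. The 7 genes had a median of -1.23. NCAPD3, a subunit of condensin II, had the smallest p and stood at 147 ± 5.93 CPM with darolutamide and 1907 ± 88.4 CPM with R1881. FKBP5, a co-chaperone of steroid receptors, was at 152 ± 11.1 CPM with darolutamide and 1502 ± 87.4 CPM with R1881. SORD, sorbitol dehydrogenase, was at 730 ± 8.98 CPM with darolutamide and 2154 ± 45.3 CPM with R1881. Of 14 genes known to be repressed by androgen 11 were measured, with 8 higher and 3 lower and a median of 0.75. DDC, the aromatic amino acid decarboxylase, was higher, at 161 ± 3.93 CPM with darolutamide and 44.2 ± 1.47 CPM with R1881, as was the glucuronosyltransferase gene UGT2B15 (log2 fold change 1.88). The 3 lower ones were UGT2B28 (-2.17), UGT2B11 (-1.67) and the potassium channel gene KCNMA1 (-1.21). UGT2B11 and KCNMA1 were named after their values were seen, and the UGT2B genes are close paralogs between which reads may be split.

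Some factors that work with the receptor were lower and others did not pass. GRHL2, an epithelial transcription factor, had a log2 fold change of -0.66 and PIAS1, a SUMO ligase that modulates the receptor, one of -0.84. FOXA1 and HOXB13, transcription factors that bind enhancers together with the receptor, were each at 0.02 and did not pass.

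NDRG1 is also a hypoxia gene, PMEPA1 also a TGF-beta gene, and ABCC4 exports cAMP and prostaglandins, so the genes of those pathways were counted as well. The shares to set beside these counts are the 23.7% lower and 22.8% higher of all genes. Among 20 measured of 22 hypoxia-induced genes 15 were lower and 2 higher, and 3 did not pass (median -0.38). Among the lower ones ANKRD37, an ankyrin repeat gene, was at -2.09, the hexokinase gene HK2 at -0.94 and the lactate dehydrogenase gene LDHA at -0.60. The higher ones, named after their values were seen, were the prolyl hydroxylase gene EGLN3 (1.02) and the MAX partner gene MXI1 (0.56). Among 18 measured of 22 TGF-beta-induced genes 3 were lower and 6 higher, and 9 did not pass (median 0.13), with SNAI2, a repressor of epithelial genes, at -2.22 and SMAD3, a signal transducer of the pathway, at 0.83. KLF10, an early TGF-beta response factor, was at 0.48. Among 16 measured of 20 genes of cAMP and prostaglandin handling 6 were lower and 5 higher, and 5 did not pass (median -0.04). HPGD, which degrades prostaglandins and is also on the list of androgen-induced genes, was at -2.33, the prostaglandin receptor gene PTGER4 at -1.70 and the prostaglandin transporter gene SLCO2A1 at -0.78.

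The relatives of the 7 genes moved in both directions, as did the genes of the whole table, with 23.7% lower and 22.8% higher. Of 6 membrane serine proteases measured among 18, TMPRSS11E was lower (-0.46), TMPRSS13 was higher (0.86), and HPN, ST14, PRSS8 and TMPRSS6 did not pass. Without combination replicate 4 HPN (-0.41) and ST14 (-0.50) passed as lower. Of 3 SLC45 genes SLC45A2 was lower (-0.45), a call that was lost without combination replicate 5 and against libraries 51 to 55 alone, and SLC45A4 at 0.04 did not pass. NDRG2 (0.11) and NDRG3 (0.26) were higher where NDRG1 was lower, the call of NDRG2 being lost with the replicate number as a block and in 2 other alternatives. Of 6 ABCC genes ABCC1, an efflux pump of glutathione conjugates, was lower by nearly as much as ABCC4, at 125 ± 11.5 CPM with darolutamide and 286 ± 11.7 CPM with R1881 (log2 fold change -1.19). ABCC5 (0.49) and ABCC6 (0.50) were higher, and reads of ABCC6 may be split with its pseudogenes. All 3 measured TRPM relatives, TRPM7 (-0.31), TRPM4 (-0.49) and TRPM2 (-0.68), were lower, but TRPM2 and TRPM4 overlapped between groups and lost their calls in 7 and 8 alternatives, edgeR and DESeq2 among them. ACP1 was lower (-0.21), ACP6 was higher (0.38) and ACP2 at -0.16 did not pass, though it did without combination replicate 4 (-0.23). LDLRAD4, the relative of PMEPA1, was not analysed here.

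**Figure D5:**
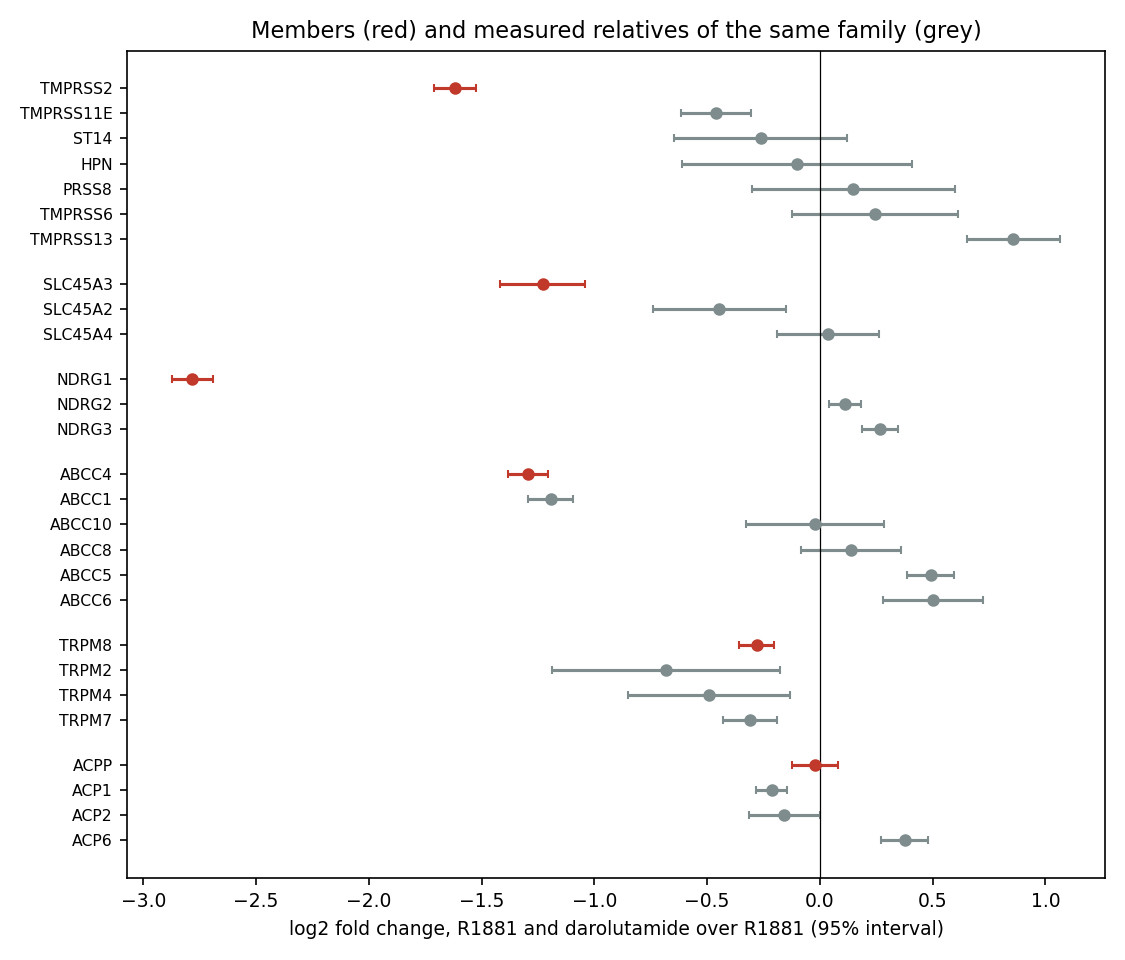
Log2 fold change (horizontal axis, R1881 and darolutamide over R1881) with 95% interval of 6 of the 7 genes, each first in its block, and of its measured relatives with a mean of at least 1 CPM. NDRG1 at -2.78 stands opposite NDRG2 and NDRG3 at 0.11 and 0.26, and ABCC1 at -1.19 lies beside ABCC4 at -1.29.

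The genes whose pattern over the 15 libraries was most like that of each gene were taken by Pearson correlation of log2(CPM + 0.5). For the genes that were lower with darolutamide this mostly reflects the difference between the groups. For TMPRSS2 they were CREB3L4 and SEC14L2 (r = 0.998 for both), and for NDRG1 CREB3L4 (0.999) and IGF1R (0.998), the receptor of insulin-like growth factor. For ABCC4 they were UAP1, an enzyme of hexosamine synthesis, and LIFR, a cytokine receptor (0.999 for both), and for PMEPA1 ABCC1 and PGC, pepsinogen C (0.998 for both). SLC45A3 was most like the luminal keratin gene KRT8 and its pseudogene KRT8P37 (0.997 for both), between which reads may be split. TRPM8 was most like BNIP3P1 (0.979), a pseudogene, and XRCC6 (0.976). ACPP, whose groups overlapped, was most like RAB11FIP2 (0.950) and GNL3 (0.938). Both had log2 fold changes near that of ACPP, 0.03 and -0.02, so these matches reflect variation among libraries within the groups. Transcript GC was 43.1% for ACPP, 38.6% for RAB11FIP2 and 42.2% for GNL3. The part of the GC trend in the matches was not tested.

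The luminal identity of the cells was visible in both groups, at different levels. The 9 measured of 10 luminal markers summed to 4297 to 4636 CPM with darolutamide and 7252 to 8266 CPM with R1881. Of these 4 were lower, KRT8 (-2.10) and KRT18 (-1.82) among them, 2 were higher and 3 did not pass. Markers of other cell types stood far below these sums. Fibroblast markers (3 of 8 measured) were all higher and summed to 13.5 to 30.6 CPM with darolutamide and 6.36 to 10.5 CPM with R1881, with COL3A1 at 1.92, LUM at 0.48 and COL1A1 at 0.57. The call of COL1A1 was lost in 13 alternatives, among them without combination replicate 4 (0.28). Basal markers (2 of 6 measured, ITGB4 higher and KRT14 lower) summed to 2.55 to 9.24 CPM with darolutamide and 2.30 to 3.38 CPM with R1881. Neuroendocrine markers (2 of 7) summed to 49.7 to 56.0 CPM with darolutamide and 30.6 to 36.5 CPM with R1881, almost all of it from ENO2 (0.68), while SYP did not pass. VWF alone was measured of 4 endothelial markers (0.50), and none of 6 immune markers was. The part of these markers in the results of the 7 genes was not tested.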

How the data were processed

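RNA of LNCaP cells was measured in 15 libraries (TruSeq Stranded mRNA, single-end reads of 50 cycles), grouped by the labels as R1881 and darolutamide (n = 5) and R1881 (n = 10). The study's methods call them biological replicates but exchange the sizes of the groups and state another R1881 concentration, and the labels were followed. A p-value here reflects only the spread among these libraries. Per the labels and methods, the authors used bcl2fastq 2.17, aligned reads to GRCh38 with STAR and counted them per gene with featureCounts. The annotation, the strand setting and the versions of STAR and featureCounts are not given in the sources used here. The deposited values, called CPM by the authors, are a scaled signal per gene: columns sum to 1005403 to 1078567, and 100% of values were whole reads (tolerance 0.001 reads) divided by 1 factor per library, which differed from edgeR's TMM factors by at most 2.99%.

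Because the values are scaled, limma 3.58.1 (R 4.3.3) was run with a trend on log2(CPM + 0.5) for all 17272 genes, without a filter, with Benjamini-Hochberg adjusted p under 0.05. The script was tested on simulated data. Alternatives were pseudocounts of 0.1 and 1, a mean of at least 1 CPM, scaling by library totals, edgeR 4.0.16 and DESeq2 1.42.0 on recovered reads, the replicate block, either R1881 run, each library left out and combination replicates 3 and 4 left out. A GC correction (a spline of transcript GC per library, 13777 genes) was added after seeing the data. The replicate numbers did not pair the libraries: deviations of same-numbered libraries correlated at -0.151 to 0.375, and only number 3 was closest to its own.

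The 7 genes and the gene lists were chosen with earlier results of these data known. Named were the 7 genes, the 2 genes most correlated with each (mean of at least 1 CPM), up to 3 genes of smallest p per list and every relative with a mean of at least 1 CPM. Some results of the lists are not reported here. Of the 17272 symbols, 14804 matched GENCODE v44, directly or through RefSeq synonyms. Positions are from GENCODE v44 (GRCh38); the authors may have used another annotation.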

Additional observations from a re-analysis of the deposited data

Results flagged for a closer look

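In 19 of 138 groups of values, taken from 69 named genes in each treatment, 1 library stood far from the others of its group. Chance gives about 1 in 20 groups, and the genes of a library are not independent. Some were also named because they correlated most with the 7 genes over these same libraries, KRT8P37, UAP1 and LIFR among them. Outliers shared with the 7 genes follow in part from that choice, so the count cannot be set against chance. Of the 7 androgen targets, combination replicate 4 had the highest SLC45A3 of its group, 209 CPM (others 124 to 142 CPM), and the lowest ABCC4, 394 CPM (others 450 to 462 CPM).

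Combination replicate 4 was also the outlying library for 13 other genes. It was the highest for HPN at 148 CPM (others 34.4 to 61.8), ST14 at 141 CPM (47.7 to 70.5), TMPRSS13 at 8.06 CPM (5.99 to 6.43), SLC45A4 at 13.2 CPM (7.83 to 8.86), TRPM2 at 58.6 CPM (13.9 to 26.1) and TRPM4 at 97.1 CPM (36.0 to 48.9), and for COL1A1 at 20.6 CPM (5.55 to 8.86) and KRT8P37 at 16.8 CPM (7.53 to 8.9). It was the lowest for FKBP5 at 133 CPM (154 to 162), TRPM7 at 101 CPM (118 to 123), LDHA at 444 CPM (508 to 527), UAP1 at 147 CPM (166 to 172) and LIFR at 36.6 CPM (46.2 to 49.6). This library had the GC slope of 0.358, and its part in these values was not tested.

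In combination replicate 1, SLCO2A1 was 1.32 CPM (others 0.88 to 0.99) and KRT14 was 0.878 CPM (0.528 to 0.607), both low values. In R1881 replicate 6, with a GC slope of 0.225, ST14 was 129 CPM (69.9 to 100). In R1881 replicate 2, MX1 was 2.84 CPM (1.89 to 2.34).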

How the results depend on the processing

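The 6 lower calls of the androgen targets were kept under all 26 alternatives, with an adjusted p of at most 0.000985 over limma, edgeR and DESeq2, and ACPP was never called (adjusted p of at least 0.368). ACPP changed sign without a call, from -0.06 against R1881 libraries 51 to 55 to 0.05 with library totals. Over all genes, 4098 were lower and 3946 higher, against 3030 and 5326 when scaled by library totals, which shifts the median log2 fold change by 0.065. With the replicate block 6242 genes passed in place of 8044, and the block changed no call of the 7 genes. Between the R1881 runs 190 genes passed, but 125 with library totals and 742 with the GC correction, which was chosen after seeing the data. Leaving out 1 library gave 15 genes (without R1881 replicate 9) to 884 genes (without combination replicate 4), with 17 to 33 genes without R1881 replicate 10, 6, 5, 7 or 8, 50 without combination replicate 1, 61 without R1881 replicate 4, and 83 to 95 without combination replicate 5 or R1881 replicate 2 or 3, so that count rests on single libraries. The combination libraries are not compared between the runs and enter this count only through the estimate of spread shared by all 15 libraries. Of 62 other named genes 12 changed their call in at least 1 alternative and 0 of all named genes reversed. The cause of the changed counts and calls was otherwise not tested.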

Other observations

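Further RefSeq starts of the same genes were read in the same way. Of 3 further PMEPA1 windows 2 held AGAACA or TGTTCT once, and of 5 further TRPM8 windows 1 did, where 14.8% of all windows do. Each of these starts lies apart from the canonical start used above, and the libraries do not tell which start was used.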
